A study of Bos taurus with 6 samples.

Results

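The 4 intervals around the HOX clusters were followed in whole-genome bisulfite sequencing (WGBS) of bovine rumen epithelial primary cells (REPC), grown in culture from the lining of the first stomach chamber. On assembly UMD3.1.1 they were chr2:20300001-21500000 (HOXD), chr4:68800001-70000000 (HOXA), chr5:25600001-26800000 (HOXC) and chr19:37900001-39200000 (HOXB), 4.9 Mb in all. Members were the 500-bp windows, counted from position 1 of each chromosome, that held at least 10 reads at CpG cytosines over the 6 libraries. They were picked by position and depth, without use of methylation levels. Depth was counted at CpG cytosines, so windows with many of these passed more easily. In the intervals such windows were the less methylated ones, and levels describe the members only. The difference from other autosomal windows grew with the read minimum, in HOXD from -28.7 points at 5 reads to -35.8 at 20. This gave 5364 of 9800 possible windows with 236473 reads, out of 2494593 such windows in the whole series. HOXD held 1052 windows, HOXA 1097, HOXC 1629 and HOXB 1586.

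HOX genes encode homeobox transcription factors that give cells of the embryo their position along the body axis. In mammals they lie in 4 clusters, each on a chromosome of its own, and their order along the chromosome follows the order in which they are switched on. The clusters are rich in CpG islands and are textbook targets of Polycomb repression. In many cell types they lie in wide stretches with little DNA methylation, often called methylation valleys or canyons, whether or not the genes are active. In RefSeq's gene table of another cattle assembly, ARS-UCD2.0, 9 HOXD genes lie on chromosome 2, 11 HOXA genes on chromosome 4, 9 HOXC genes on chromosome 5 and 10 HOXB genes on chromosome 19. No annotation or sequence of UMD3.1.1 was at hand, so no gene, exon or promoter was placed within the intervals and no sequence is shown. For the same reason the labelled cell type was not checked against marker genes.

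The comparison asked how DNA methylation differed between untreated control cells (3 libraries) and cells given 5 mM butyrate in the medium for 24 h (3 libraries). Butyrate, a product of microbial fermentation in the rumen, blocks histone deacetylases. All cells came from 1 Holstein bull calf that was 2 weeks old and fed milk replacer only, so the replicates were cultures or libraries of 1 animal and p-values measure the spread between them. Lane 5 carried butyrate replicates 1 and 3, whereas the controls and the remaining butyrate replicate shared lane 6. Bisulfite leaves methylated cytosines as C, and the files gave counts of methylated and unmethylated reads at each CpG cytosine, both strands apart.

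Libraries held 18793438 to 23842285 reads at CpG cytosines, with 1.47 to 1.57 reads at a covered cytosine on average. Depth was therefore gained by summing cytosines in windows, where 1 sequenced fragment can count as a read at several cytosines. In the intervals no CpG cytosine reached 10 reads in any library, and the deepest had 7. The level of a library is its methylated reads over all its reads, in percent. For an interval it rested on 6328 to 13710 reads, and its 95% Wilson interval was at most 1.19 percentage points to either side. That interval covers counting error only and takes reads as independent.

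All 4 intervals were far less methylated than the other autosomal windows. In HOXD the control libraries stood at 36.6%, 35.3% and 32.6%, and the butyrate libraries at 36.6%, 37.4% and 36.3%. HOXA held 35.3%, 35.4% and 36.3% in controls, and 36.4%, 35.3% and 35.9% after butyrate. HOXC was the most methylated interval, at 50.1%, 48.3% and 48.1% in controls and 49.96%, 49.0% and 49.1% after butyrate. HOXB lay between, at 41.2%, 40.9% and 41.5% in controls and 40.4%, 40.3% and 40.9% after butyrate. Every library gave the other 2413013 autosomal windows a level of 66.0% to 66.8%.

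Within libraries, HOXD was lower than the other autosomal windows by 30.6 points (SD 1.5), HOXA by 30.6 (SD 0.53), HOXC by 17.3 (SD 0.73) and HOXB by 25.5 (SD 0.76), in 6 of 6 libraries each. The two-sided exact sign-flip permutation test gave p = 0.031 for each, the smallest value that 6 libraries allow, and 0.031 after Benjamini-Hochberg adjustment over the 4. With every window weighted alike instead of by its reads, the differences shrank to -19.1 points in HOXD, -18.3 in HOXA, -11.6 in HOXC and -16.3 in HOXB. Among the 6 pairs of intervals, HOXD and HOXA could not be told apart by the level of the whole interval. That level also depends on the share of reads in the low part of each interval, described below. Their difference was -0.07 points and ran from -2.10 to 3.66 over libraries (exact sign-flip permutation p = 0.94). The other 5 pairs kept their order in 6 of 6 libraries (exact sign-flip permutation p = 0.031, adjusted 0.0375). HOXC stood 8.20 points above HOXB, and HOXB 5.05 above HOXD and 5.12 above HOXA.

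**Figure D1:**
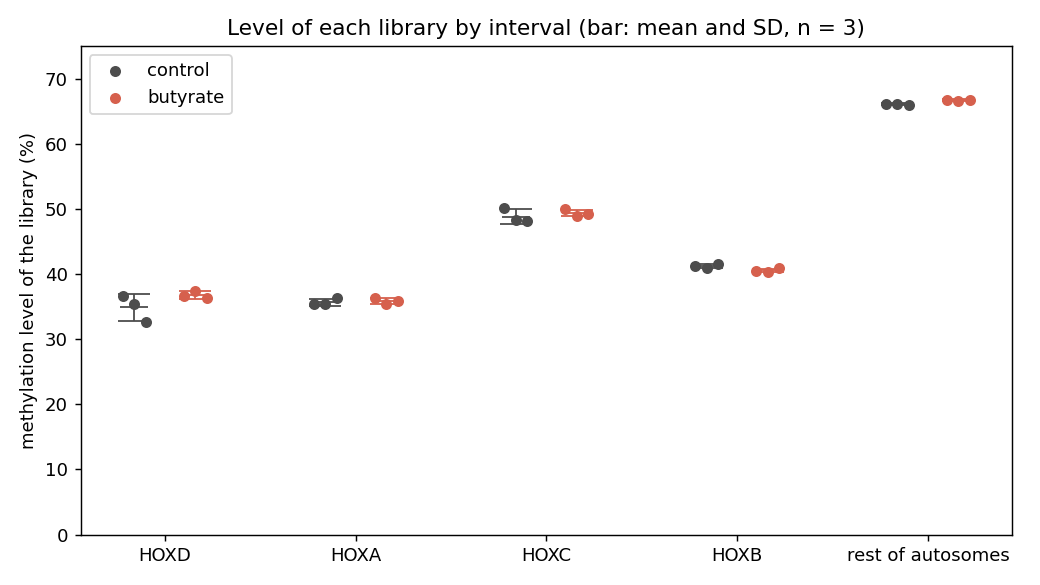
Methylation level in percent of each library (points) in the 4 intervals and in the other autosomal windows, with the mean and SD of 3 libraries. All libraries of the intervals lie between 32.6% and 50.1%, below the 66.0% to 66.8% of the rest, and control and butyrate points overlap in HOXD, HOXA and HOXC.

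The intervals held more windows near 0, while their median window was lowered by less than the level as a whole. Windows under 20% made up 17.2% of HOXD, 17.6% of HOXA, 16.2% of HOXC and 22.6% of HOXB, against 5.30% of the other autosomal windows. The median window still stood at 64.6%, 69.6%, 71.4% and 66.1% in the same order, and at 76.7% elsewhere. Windows at 80% or more were 27.2%, 33.3%, 37.4% and 29.8% of the 4 intervals and 44.9% elsewhere.

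The gap to the other autosomal windows was widest where CpGs were dense. Here and below, CpG cytosines are those with a read in any library, both strands apart, so their number also depends on depth. The median member window had 20 reads in HOXD, 28 in HOXC and 24 elsewhere. Density within the open class of more than 30 was not matched. In windows with more than 30 CpG cytosines, HOXD had a level of 8.17% (SD 0.86 over 6 libraries), HOXA 9.77% (SD 0.83), HOXB 10.4% (SD 0.99) and HOXC 21.6% (SD 1.54). Windows of that density elsewhere had 57.3% (SD 0.44). Under 20% were 94 of 106 dense windows in HOXD, 108 of 126 in HOXA, 112 of 164 in HOXC and 146 of 164 in HOXB, against 27.3% elsewhere. In windows of 16 to 30 CpG cytosines the intervals were lower than the rest by 14.8 (HOXC) to 26.7 points (HOXD). In those of 6 to 15 the gap was 3.65 (HOXC) to 8.61 points (HOXB). In the sparsest windows, with 1 to 5 CpG cytosines, HOXA differed from the rest by -0.55 points (SD 1.30) and HOXC by -0.79 (SD 2.53), gaps smaller than the spread between libraries (exact sign-flip permutation p = 0.41 and 0.47, adjusted over 16 comparisons 0.43 and 0.47). The other 14 of these 16 comparisons gave p = 0.031 by the exact sign-flip permutation test (adjusted 0.0357). Dense windows were 10.1% to 11.5% of the members of an interval, against 6.81% elsewhere.

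**Figure D2:**
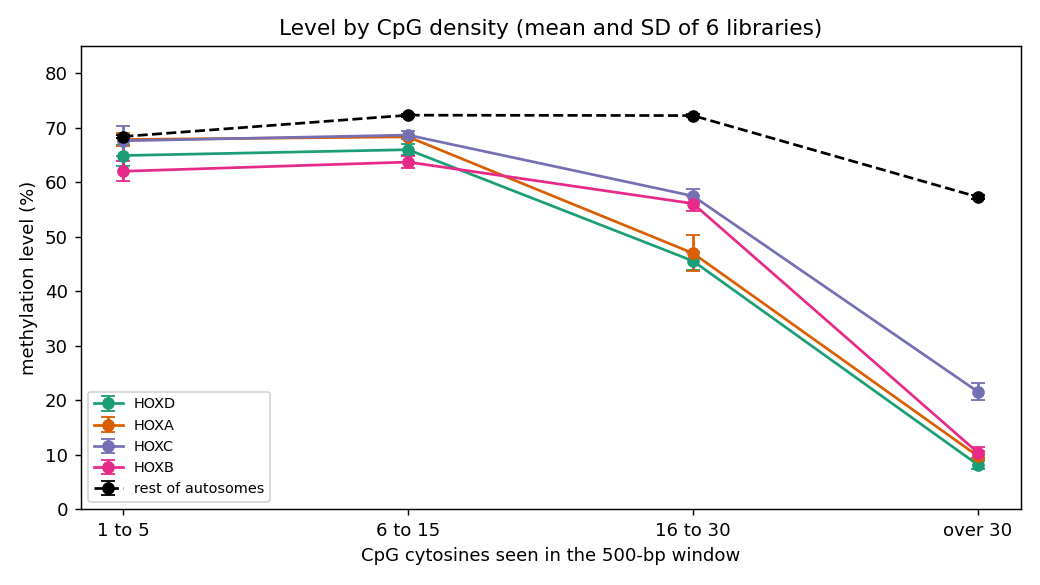
Methylation level in percent by the number of CpG cytosines seen in a 500-bp window, as the mean and SD of 6 libraries, for the 4 intervals (solid lines) and the other autosomal windows (dashed line). The lines lie close together in sparse windows and part in dense ones, where the rest is at 57.3% and the intervals at 8.17% to 21.6%.

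Along each interval the lowest levels lay in a pair of neighbouring bins. In bins of 100 kb, the other 21664 autosomal bins with at least 50 member windows had a median level of 67.5%, and 5% of them lay under 46.2%. HOXD fell to 20.9% at 20.7 to 20.8 Mb and 8.52% at 20.8 to 20.9 Mb, between neighbours of 66.7% and 52.3%. HOXA fell to 19.4% at 69.2 to 69.3 Mb and 11.8% at 69.3 to 69.4 Mb, between 72.5% and 48.0%. HOXC fell to 24.6% at 26.1 to 26.2 Mb and 18.4% at 26.2 to 26.3 Mb, between 66.3% and 77.6%. HOXB fell to 12.96% at 38.4 to 38.5 Mb and 7.58% at 38.5 to 38.6 Mb, between 58.0% and 46.8%. These 8 bins were the lowest pair of each interval, and at most 0.28% of the other bins lay below any of them. Flanking bins spanned 45.4% to 83.1%, and of all 48 interval bins with at least 50 windows 9 were under the 46.2% mark.

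To resolve these stretches, a low-methylated run was taken as a series of member windows, each with a pooled level under 20%, with at most 1 window short of 10 reads between neighbours, and a run of 3 kb or more was called long. The intervals held 44 long runs and the rest of the autosomes 1886, which is 8.98 against 0.75 per Mb. The ratio of these rates, 11.9, depended on the length asked for: it was 5.61 where 2 kb counted as long (75 runs against 6839) and 48.6 at 5 kb (26 against 274). HOXD had 8 long runs, HOXA 9, HOXC 10 and HOXB 17. In the same order the counts were 6, 5, 4 and 12 when windows had to be under 10%, 10, 16, 21 and 28 at 2 kb, and 4, 6, 5 and 11 at 5 kb, so the place of HOXC among the intervals changed with the definition. Together the 44 runs covered 271.5 kb and 9.60% of the member windows, while long runs took 0.595% of windows elsewhere. With 0.195% of the autosomal sequence, the intervals thus held 3.54% of all bases in long runs. Interval runs were also longer: their median was 5.0 kb against 3.5 kb. Of the 44, 26 reached 5 kb and 11 reached 8 kb, against 274 and 67 of 1886.

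**Figure D3:**
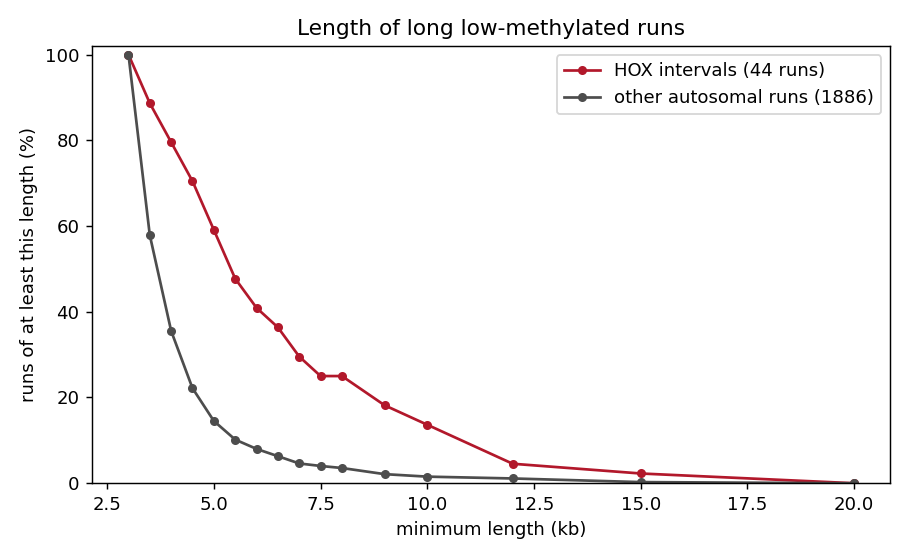
Share in percent of long low-methylated runs that are at least as long as the value on the x axis (kb), for the 44 runs of the HOX intervals and the other 1886 autosomal runs. At 5 kb the share is 59.1% in the intervals and 14.5% elsewhere.

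The long runs lay in clusters. When neighbouring long runs less than 50 kb apart were joined, a gap chosen after the data were seen, each interval had 1 cluster with most of its runs. The HOXB cluster held 15 runs and 99.5 kb in runs, the HOXD cluster 8 runs and 59.0 kb, the HOXA cluster 9 runs and 54.0 kb and the HOXC cluster 9 runs and 47.5 kb. Ranked by bases in runs among all 1614 clusters of the autosomes, these were the first 4. Outside the cluster lay 55 of the 181 windows under 20% in HOXD, 29 of 193 in HOXA, 125 of 264 in HOXC and 135 of 358 in HOXB. The pooled level outside it was 53.7% in HOXD, 67.9% in HOXA, 60% in HOXC and 55.9% in HOXB. The largest of the other 1607 held 6 runs and 40 kb on chromosome 1, and 87.9% of the others were a single run. With a gap of 100 kb the order was the same, with 40.5 kb in the largest other cluster. With 20 kb, HOXC broke up and its largest piece (22.0 kb) came to rank 7, while HOXB, HOXD and HOXA kept ranks 1 to 3. HOXA at 41.5 kb was then close to the 40 kb of the largest other cluster.

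**Figure D4:**
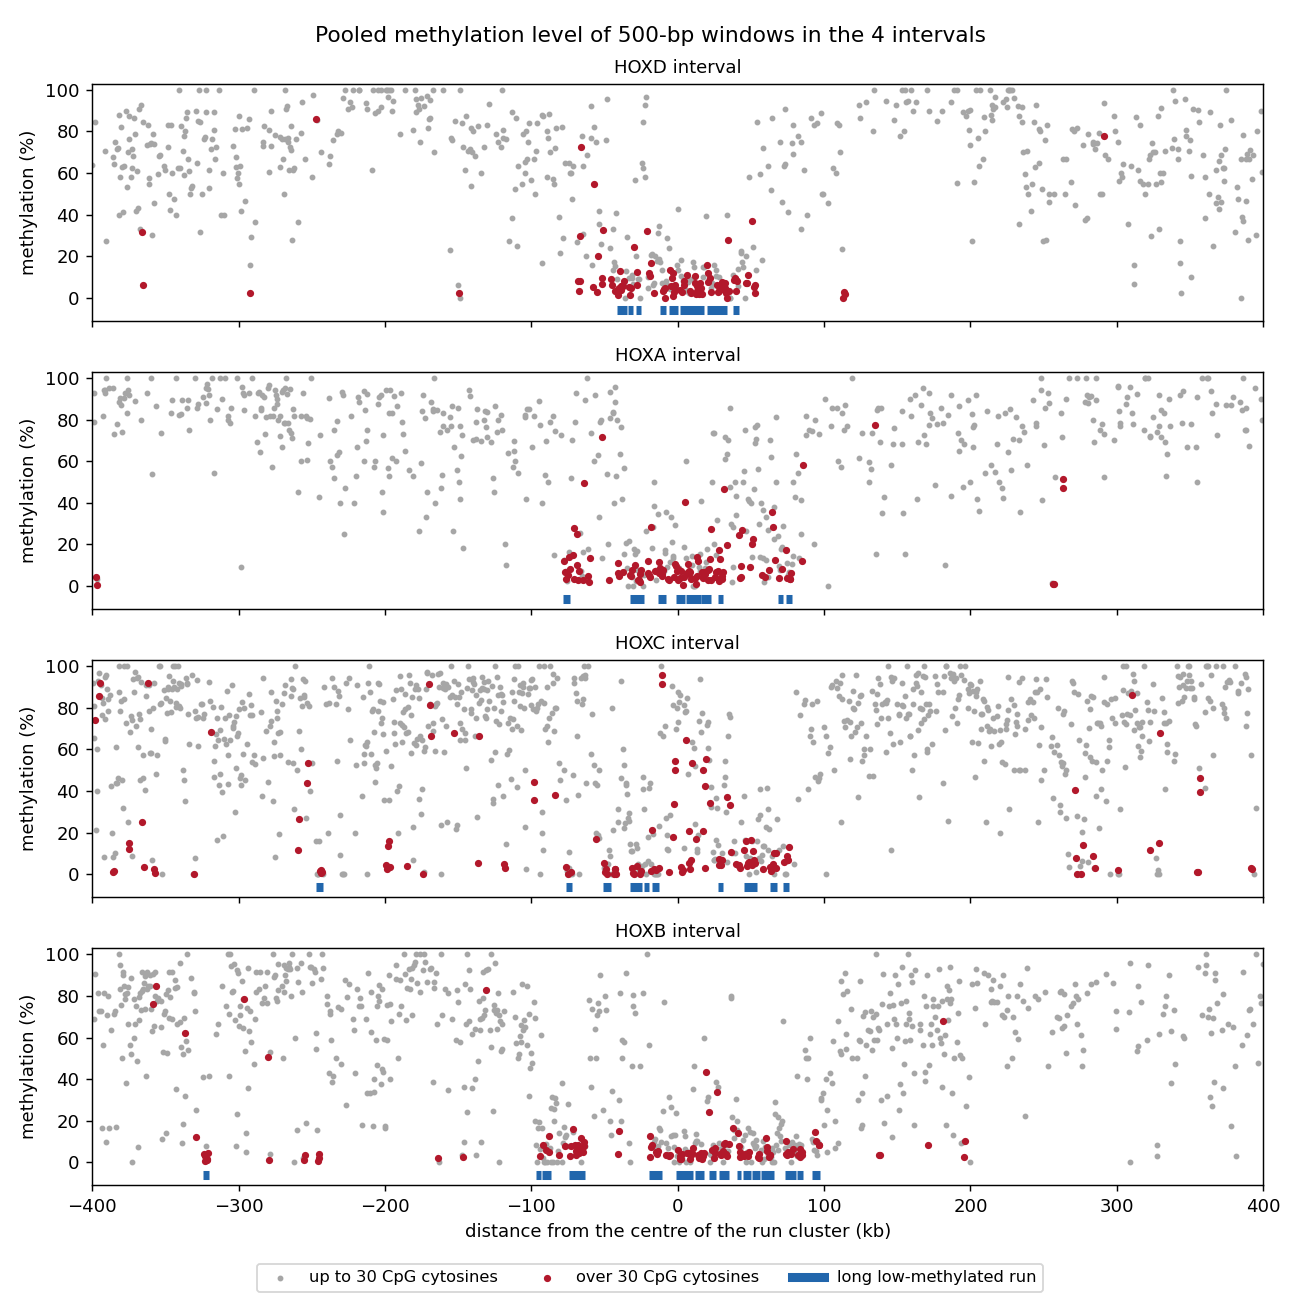
Pooled methylation level in percent of member windows within 400 kb of the centre of the run cluster of each interval, in grey for windows with up to 30 CpG cytosines and in red for denser ones, with long low-methylated runs as blue bars below. Most dense windows inside the clusters lie under 20% (71 of 74 in HOXD, 100 of 114 in HOXA, 64 of 80 in HOXC and 96 of 99 in HOXB), which those in long runs do by definition, and several in HOXA and HOXC stand above 40%.

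The HOXD cluster was the most compact. It spanned 83.5 kb (chr2:20786501-20870000), of which 70.7% lay in long runs, and its pooled level was 7.63%. Its longest run, chr2:20829501-20846500, measured 17.0 kb and held 1228 CpG cytosines. Only 4 of 1930 long runs on the autosomes were longer, up to 19.5 kb. It stood at 6.69%, 6.52% and 4.08% in the controls and 4.89%, 7.58% and 5.86% after butyrate, from 588 to 859 reads a library. The next run, chr2:20848001-20862000, began 1.5 kb further on. It was 14.0 kb long and held 1276 CpG cytosines, with levels of 4.98% to 6.88% in the 6 libraries. The third, chr2:20786501-20793500 at the left edge of the cluster, was 7.0 kb long with levels of 3.42% to 8.54%. The gaps between HOXD runs were short: 6 of 7 measured 4.0 kb or less. The widest, 13 kb at chr2:20803001-20816000, had a pooled level of 17.0%, with 10 of its 22 member windows under 20% and 3 at 80% or more.

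Windows of a long run are under 20% by definition. Of the dense windows between the runs of the HOXD cluster 5 of 8 were under 20%, and outside the cluster 23 of 32. The dense window with the highest pooled level, chr2:20581001-20581500 with 36 CpG cytosines, had 86.1% methylation. It held 33.3% in control 1, 94.7% and 100% in controls 2 and 3, and 92.9%, 100% and 86.4% after butyrate. Its libraries had 1 to 22 reads each, so single values there carry little weight.

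The HOXA cluster was broader and more broken. It spanned 156.5 kb (chr4:69245501-69402000), with 34.5% in long runs and a pooled level of 12.7%. Its longest runs were chr4:69329501-69339500 and chr4:69291001-69301000, of 10 kb each. The first held 905 CpG cytosines and stood at 7.73%, 8.41% and 7.03% in controls and 6.11%, 6.06% and 9.38% after butyrate. The second held 573 CpG cytosines, with levels of 3.93% to 7.41% in the 6 libraries. The third, chr4:69340001-69346500, was 6.5 kb long at 4.90% to 7.32%, and only 1 window of 500 bp at 40.9% parted it from the first. Gaps of 40.5 kb (chr4:69250501-69291000) and 37.5 kb (chr4:69355001-69392500) divided the cluster, at pooled levels of 20.9% and 21.4%. They were mixed rather than evenly raised: 23 of 58 and 17 of 60 member windows in them were under 20%, while 12 and 2 were at 80% or more.

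Between the runs of the HOXA cluster 34 of 48 dense windows were under 20%, and none of the 126 dense windows of the interval reached 80%. The highest, chr4:69458001-69458500 with 40 CpG cytosines, had a pooled level of 77.3%. It stood at 66.7%, 81.3% and 75% in controls and at 85.3%, 76.9% and 33.3% after butyrate, from 6 to 48 reads.

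HOXC differed most from the others. Its cluster of 152.5 kb (chr5:26112001-26264500) had 31.1% of its span in long runs and a pooled level of 19.2%, the highest of the 4. Its longest runs, chr5:26233501-26242500 of 9.0 kb and chr5:26155501-26164000 of 8.5 kb, lay on either side of a 40 kb gap. The first stood at 8.39%, 5.63% and 8.13% in controls and 7.59%, 7.71% and 10.8% after butyrate. The second was lower, at 1.5%, 4.72% and 1.88% in controls and 5.58%, 4.10% and 3.27% after butyrate. The third, chr5:26137501-26143000 of 5.5 kb, had levels of 1.45% to 5.5%. The lowest long run of the interval, chr5:26112001-26116000 at the left edge of the cluster, had a pooled level of 1.71%. A single run of 5.0 kb, chr5:25941001-25946000 at 2.33%, lay 166.0 kb to the left of the cluster.

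The gap at the centre of HOXC, chr5:26175501-26215500, had a pooled level of 36.1% over 71 member windows with 27.7 CpG cytosines each on average. Of these windows 22 were under 20% and 12 were at 80% or more. It held the most methylated dense window of the interval, chr5:26177501-26178000 with 49 CpG cytosines, at 92.9%, 95.2% and 96.3% in controls and 96.2%, 100% and 92.3% after butyrate (14 to 52 reads). All 6 libraries were thus high there, 2 kb beyond the end of a long run. HOXC held 17 dense windows at 80% or more, 2 of them inside the cluster, while HOXB held 6, HOXD 1 and HOXA 0. Among dense windows elsewhere on the autosomes 41.0% were at 80% or more.

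HOXB had the most runs and the most bases in them. Its cluster spanned 194.0 kb (chr19:38404501-38598500), with 51.3% in long runs and a pooled level of 9.32%. The longest runs were chr19:38500501-38512000 and chr19:38427001-38438500, of 11.5 kb each. The first stood at 3.90%, 3.59% and 6.43% in controls and 3.52%, 3.07% and 3.93% after butyrate. The second stood at 7.67%, 7.49% and 8.41% in controls and 6.35%, 6.47% and 5.75% after butyrate, with no overlap of the groups. The third, chr19:38558501-38567500, was 9 kb long at 3.88% to 6.64%. From 38500501 to 38567500 the runs followed each other with gaps of 1.0 to 5.5 kb. A gap of 43.5 kb (chr19:38438501-38482000) at a pooled level of 39.95% cut off the 3 leftmost runs. Only 36 windows of that gap had 10 reads, with 11.6 CpG cytosines each on average.

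Between the runs of the HOXB cluster 8 of 11 dense windows were under 20%, and outside the cluster 50 of 65. Single long runs at chr19:38097501-38100500 (10.1%) and chr19:38177501-38181000 (2.36%) lay apart to the left. The most methylated dense window, chr19:39131501-39132000 with 31 CpG cytosines, stood at 100% in all 3 controls and at 90%, 96.0% and 87.5% after butyrate, from 8 to 25 reads.

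Long runs of the intervals were low, but less so than other long runs. Their level was 5.90% (SD 0.20, 6 libraries) against 3.66% (SD 0.09) in long runs elsewhere, higher by 2.24 points in 6 of 6 libraries (two-sided exact sign-flip permutation p = 0.031). In windows with more than 30 CpG cytosines the difference was 2.15 points (5.51% against 3.36%), and in sparser windows of long runs 1.41 points (7.79% against 6.39%), each in 6 of 6 libraries (exact sign-flip permutation p = 0.031). This comparison was added after the data were seen. Density within the class of more than 30 was not matched, and the median run had 37.0 CpG cytosines per window in the intervals against 47.2 elsewhere. Single runs overlapped widely, with pooled levels of 1.71% to 10.1% in the intervals and 0.43% to 17.1% elsewhere. The mitochondrial sequence, which has little methylation, read 6.95% to 11.2% in the same libraries, and the part of incomplete conversion in levels of a few percent was not tested. Most CpG cytosines in the runs were never read as methylated, from 81.5% in HOXA to 87.3% in HOXC, at about 3 reads each over all libraries. Of cytosines with at least 5 reads in the runs, 0 of 1049 in HOXD, 1 of 1066 in HOXA, 0 of 539 in HOXC and 2 of 1218 in HOXB were at 80% or more.

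Neighbouring long runs of the intervals lay close together, so windows past the edge of a run could fall in the next one, and the values by distance from an edge restate this clustering. The first window outside a long run had a median level of 35.7% in the intervals and 48.1% elsewhere, where the run's own definition asks for at least 20%. At 2.25 kb from the edge the median was 10.6% in the intervals and 73.3% elsewhere, and at 5.75 kb 8.26% and 74.7%. Under 20% were 70.1% of windows at 2.25 kb in the intervals and 18.4% elsewhere. Windows lying between close runs were counted from both sides.

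**Figure D5:**
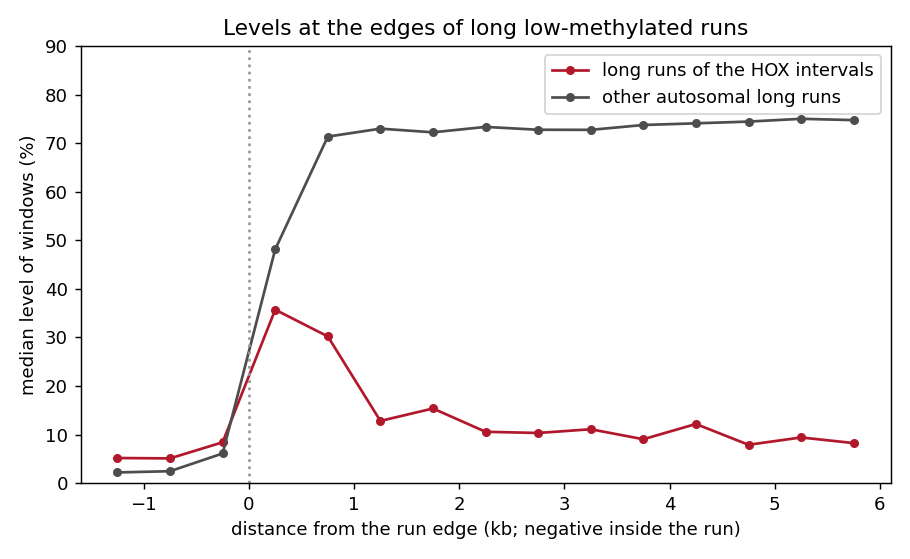
Median methylation level in percent of member windows by distance in kb from the edge of long low-methylated runs (negative inside), for the runs of the HOX intervals and the other autosomal runs. Outside the edge the interval line rises to 35.7% and falls back to 8.26%, where windows of neighbouring runs are included, whereas the other line climbs to over 70%.

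Levels of the intervals differed little between control and butyrate libraries. HOXD went from 34.9% ± 2.06 (SD, n = 3) to 36.8% ± 0.57, a difference of 1.93 points that lay within the spread of the controls (exact permutation p = 0.3). With windows weighted alike HOXD differed by 1.25 points (exact permutation p = 0.1). Less the change in the rest of the autosomes, that was 0.67 points (exact permutation p = 0.2). HOXA differed by 0.21 points (35.7% ± 0.52 against 35.9% ± 0.52) and HOXC by 0.54 (48.8% ± 1.13 against 49.4% ± 0.53), each with exact permutation p = 0.6. HOXB went from 41.2% ± 0.32 to 40.5% ± 0.29, a difference of -0.67 points (exact permutation p = 0.1, the smallest value that 3 against 3 allows). Its groups only just failed to overlap, with control 2 at 40.897% and butyrate 3 at 40.876%. They overlapped when windows with 5 reads were let in (-0.62 points, exact permutation p = 0.2) and when windows were weighted alike (-0.37 points, exact permutation p = 0.6). The other autosomal windows rose over the same contrast, from 66.1% ± 0.11 to 66.7% ± 0.11 (exact permutation p = 0.1). The change in HOXB minus that of the rest was -1.28 points, with no overlap of the groups (exact permutation p = 0.1), -1.54 to -1.12 when 1 library was left out, and -0.94 with windows weighted alike (exact permutation p = 0.4). For HOXD, HOXA and HOXC it was 1.32, -0.40 and -0.07 points (exact permutation p = 0.4, 0.4 and 1). With 1 library left out it ran from 0.23 to 2.19 in HOXD, -0.67 to -0.06 in HOXA and -0.50 to 0.51 in HOXC. The exact permutation test of 3 against 3 libraries cannot give a p under 0.1. By CpG density, the groups did not overlap in HOXC windows of 1 to 5 (3.39 points) and 6 to 15 CpG cytosines (1.14). Nor did they in HOXA windows of 16 to 30 (-3.83, exact permutation p = 0.1 for each of these). In all other density classes of the intervals they overlapped. The same classes of the other autosomal windows rose by 0.31, 0.45 and 0.50 points. Whether the groups overlapped in those windows was not computed, so no background is given. Among many classes some can reach an exact permutation p of 0.1 by random assignment of libraries alone.

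On lane 6 alone, with 1 butyrate library against 3 controls, HOXB differed by -0.88 points and HOXA changed sign (-0.31 points). Under the requirement that a CpG cytosine be covered in all 6 libraries, which left 136 to 219 cytosines an interval, HOXD, HOXA and HOXC reversed to -1.77, -0.53 and -1.46 points, and HOXB differed by -3.61 (exact permutation p = 0.4).

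In the long runs the level was 6.04% ± 0.12 in controls and 5.76% ± 0.16 after butyrate (SD, n = 3; exact permutation p = 0.1), and 3.62% ± 0.08 and 3.70% ± 0.09 in the other autosomal runs (exact permutation p = 0.4). The groups in the intervals only just failed to overlap, with control 2 at 5.908% and butyrate 3 at 5.896%, and the difference of -0.29 points ran from -0.36 to -0.20 when 1 library was left out. By interval the difference was -0.05 points in HOXD, -0.29 in HOXA, 0.18 in HOXC and -0.65 in HOXB (exact permutation p = 1, 0.6, 0.8 and 0.2). With 1 library left out, the sign could change in HOXD (-0.34 to 0.31), HOXA (-0.54 to 0.030) and HOXC (-0.15 to 0.45). In HOXB it did not (-0.97 to -0.39). Single runs with no overlap of the groups numbered 1 higher and 2 lower of 44. Among all 1930 autosomal runs 4.92% were higher and 4.09% lower in this sense, so these counts were near the background. The higher run was the lone HOXB run chr19:38177501-38181000, at 0%, 1.49% and 0.917% in controls and 4.46%, 3.11% and 2.56% after butyrate. The lower ones were the 11.5 kb HOXB run at chr19:38427001-38438500 and a 4.0 kb HOXA run, chr4:69351001-69355000, at 8.12%, 9.89% and 7.67% in controls and 5.64%, 5.30% and 4.83% after butyrate. Of 49 bins of 100 kb, 3 were higher and 3 lower without overlap, where the background was 8.04% higher and 3.17% lower. The higher ones were 20.6 to 20.7 Mb (by 8.41 points) and 21.0 to 21.1 Mb (3.41) in HOXD and 26 to 26.1 Mb (5.89) in HOXC, all outside the run clusters. The lower ones were 69.8 to 69.9 Mb in HOXA (-2.97 points) and 38.9 to 39.0 Mb (-2.39) and 38.5 to 38.6 Mb (-1.08) in HOXB, of which the last lies in the run cluster.

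Differentially methylated regions (DMRs) were sought under criteria taken from the study's methods, except that Benjamini-Hochberg q values stood in for those of the SLIM method. None of the 5364 members could be tested, since these criteria ask for CpGs with 10 reads in a library. Elsewhere 70 of 8874 windows were called (0.789%) by this fit, which ignores the spread between libraries. A quasi-binomial F test, which allows for that spread, called 0 of the same 8874 windows. With the same CpGs in all 6 libraries, logistic regression called 4 of 8501. When all CpG cytosines of a window were summed, 278 members had at least 10 reads in every library, 53 in HOXD, 63 in HOXA, 77 in HOXC and 85 in HOXB. Of these 259 had over 30 CpG cytosines and 223 a pooled level under 20%, so the windows tested were chiefly the dense, low ones. limma called 0 of the 278 and 0 of all 103361 windows at an adjusted p under 0.05 (background 0%). At an unadjusted p under 0.05 it had 26 members (9.35%), 9 higher and 17 lower, against 5.46% of all windows. Counts were also simulated at the depths of all 103361 windows, without spread between libraries and with changed windows drawn from all of them. There limma found 0% of windows changed by 20 points and 3% of those changed by 40, so its count of 0 says little. Recovery among the members themselves was not simulated apart. Every butyrate library lay above every control in 13 members and below in 17 (4.68% and 6.12%), where all windows gave 5.33% and 4%. By interval it was 1 above and 4 below of 53 in HOXD, 1 and 5 of 63 in HOXA, 2 and 3 of 77 in HOXC and 9 and 5 of 85 in HOXB.

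The windows with the smallest limma p showed how small the counts were. The HOXB window chr19:38379001-38379500, with 28 CpG cytosines and to the left of the run cluster, had the largest rise among these. It stood at 61.1%, 54.5% and 54.5% in controls and 86.7%, 91.7% and 90.9% after butyrate, from 11 to 22 reads a library. The change was 2.07 on the log2 ratio scale (SE 0.36) with a limma adjusted p of 0.906. In HOXC, chr5:26473001-26473500 had 0 methylated of 91 reads in controls, which allows up to 3.30%, and 6.25%, 5.88% and 8% after butyrate. In HOXA, chr4:69304501-69305000 had 0 of 95 in controls, which allows up to 3.16%, and 5.88%, 10.3% and 7.41% after butyrate. These upper limits take reads as independent, which reads from 1 fragment are not, so the true limits are wider. In HOXD, chr2:20824001-20824500 inside a long run went from 0%, 5.45% and 7.69% to 9.09%, 12.5% and 20.8%.

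Among windows that were lower, the HOXA window chr4:69352001-69352500 lay in the 4.0 kb run named above. It stood at 22.6%, 25.4% and 20.8% in controls and 12.8%, 11.5% and 7.89% after butyrate, from 31 to 63 reads. In HOXD, chr2:20860001-20860500 in the 14.0 kb run held 8.70%, 7.89% and 20% in controls and 4.44%, 0% and 0% after butyrate. In HOXB, chr19:38533001-38533500 held 17.6%, 12.8% and 10%, and then 5.00%, 0% and 0%. In HOXC, chr5:25778001-25778500 held 5.26%, 5.13% and 5.88%, and then 0 of 159 reads, which allows up to 1.89% if reads were independent. None passed adjustment (limma adjusted p = 0.906 for all 8).

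Logistic regression on the same 103361 windows, which takes reads as independent and ignores the spread between libraries, called 3 of 278 members, all lower after butyrate, against a background of 0.517%. They are named for that call, after their values were seen, and in each the controls themselves were far apart. The HOXA window chr4:69374501-69375000 in the 37.5 kb gap held 86.4%, 24.0% and 27.3% in controls and 6.67%, 14.5% and 7.14% after butyrate (logistic regression with Benjamini-Hochberg adjustment, q = 1.31e-05). The HOXD window chr2:20773501-20774000, left of the cluster, held 41.8%, 32.1% and 3.85%, and then 5.88%, 19.6% and 9.52% (q = 0.0025), so the groups overlapped. The HOXC window chr5:26205001-26205500 in the central gap held 90.9%, 57.1% and 65.6%, and then 20%, 57.1% and 33.8% (q = 0.028), where butyrate replicate 2 matched control 2. All 3 lay outside long runs by definition, since their pooled levels were 20.4%, 20.2% and 50% in the order named. Among the 278 members the range over the 6 libraries had a median of 10 points in windows under 20% and 32.1 points in the 40 windows from 20% to 80%.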

How the data were processed

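WGBS of 3 control and 3 butyrate-treated REPC libraries was used. Per the study's methods and the submitters' processing notes, the authors trimmed reads with Trim Galore 0.4.1, mapped them to UMD3.1.1 and called cytosines with Bismark. In the deposited files each CpG cytosine had a count of methylated and a count of unmethylated reads, without header, filter or normalization. The methylated column was recognised from the values. The labels and the methods differ on read length and run type. Whether duplicates were removed, and the conversion rate, is not given in the sources used here. Autosomes 1 to 29 were the first 29 chromosome names in order.

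Counts were summed in 500-bp windows. Levels were compared by two-sided exact permutation tests over libraries. DMRs were tested by logistic regression (CpGs with at least 10 reads, likelihood ratio, Benjamini-Hochberg q under 0.05 in place of SLIM, difference over 10 points), and windows with 10 reads in every library by limma 3.58.1 (R 4.3.3) with eBayes on log2((methylated + 1)/(unmethylated + 1)). Both were fitted to all windows of the genome. Named were the 3 longest runs of each interval, its window with the smallest limma p in either direction, windows called by either fit and its most methylated dense window. Members and lists were chosen with earlier results of these data known. On counts simulated without spread between libraries, with 200 changed windows, logistic regression recovered 88.5% of changes of 20 points with 6 false calls among 8874 windows. These figures need not hold where libraries differ, and no member was among those windows. Replicates of a group differed over member windows by more than counts of independent reads would (chi-square over degrees of freedom 1.29 to 1.40). Several reads from 1 fragment can raise this ratio, and their part was not tested. Libraries were kept apart in the permutation tests and limma, whereas pooled levels, runs and logistic regression used summed counts. Deviations of same-numbered libraries correlated at -0.0024 to 0.0059 over windows, so replicate numbers were not used as pairs in the main tests. Counting error in windows of few reads can hide pairing, so these values do not exclude it. Alternatives changed read minimums, weights, run definitions, windows, lane and libraries. Python 3.11.15, NumPy 2.4.6, pandas 2.3.3, SciPy 1.17.1 and Matplotlib 3.10.9 were used.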

Additional observations from a re-analysis of the deposited data

How the results depend on the processing

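The lower level of each interval against the other autosomal windows kept its direction under each of the 5 settings tried, with an exact sign-flip permutation p of 0.031. Its size grew with the read minimum. From 5 to 20 reads the difference went from -28.7 to -35.8 points in HOXD and -28.8 to -35.4 in HOXA. In HOXC it went from -16.8 to -19.0 and in HOXB from -24.7 to -27.7. Unweighted means of windows gave -19.1 points in HOXD, -18.3 in HOXA, -11.6 in HOXC and -16.3 in HOXB. With 1 library left out, member windows were chosen again from the other 5, whose smallest possible p is 0.0625. The differences then ran from -31.69 to -30.66 points in HOXD, -31.44 to -31.21 in HOXA, -17.71 to -17.45 in HOXC and -26.09 to -25.66 in HOXB. The windows thus changed as well, and these ranges all lie below the main differences. The number of long runs was 27 at a threshold of 10%, 75 where 2 kb counted as long and 26 at 5 kb, in place of 44, and 40 to 47 with 1 library left out.

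For the butyrate contrast, CpG cytosines covered in all 6 libraries gave -1.77 points in HOXD, -0.53 in HOXA, -1.46 in HOXC and -3.61 in HOXB, and lane 6 alone -0.31 in HOXA. The cause was not tested. With 1 library left out the difference ran from 0.79 to 2.84 points in HOXD, -0.086 to 0.62 in HOXA, 0.05 to 1.16 in HOXC and -0.90 to -0.54 in HOXB. That against the rest ran from 0.23 to 2.19, -0.67 to -0.06, -0.50 to 0.51 and -1.54 to -1.12 in the same order. In long runs it was 0.53 on lane 6 in HOXD, and with 1 library left out -0.34 to 0.31 in HOXD, -0.54 to 0.030 in HOXA, -0.15 to 0.45 in HOXC, -0.97 to -0.39 in HOXB and -0.36 to -0.20 in all 4 together. The replicate block cannot change the mean differences, which stayed at 1.93 points in HOXD, 0.21 in HOXA, 0.54 in HOXC and -0.67 in HOXB. The exact sign-flip permutation p with it was 0.5 in HOXD and HOXC and 0.25 in HOXB, the smallest possible. With the block limma again called 0 of 278 members.

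Logistic regression on all CpGs summed called 3 members in place of 0. Every other logistic fit, with the block or a library left out included, had no member to test. limma called 0 under each alternative and with each library left out, of 94 to 652 members tested. Levels at HOX gene starts were not computed, because no annotation of the files' build was used here. About 1.5 reads per covered cytosine limit single windows, and 4436 possible windows of the intervals fell short of 10 reads.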
